A study of Mus musculus with 4 samples.

Results

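Chromatin accessibility was examined at 9 genes of vascular endothelial growth factor (VEGF) signalling. They comprised the receptor tyrosine kinases Kdr, Flt1 and Flt4, the neuropilin co-receptors Nrp1 and Nrp2, and the ligands Vegfa, Vegfb, Vegfc and Pgf. The genes were listed by name and found in the GENCODE annotation of the mouse genome, as 9 of 21755 protein-coding genes. Every accessible region inside each gene or within 50 kb to either side was collected, which gave 145 of 86649 regions, 89 around the 5 receptor genes and 56 around the 4 ligand genes.

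The regions came from ATAC-Seq, in which the transposase Tn5 inserts sequencing adapters into accessible DNA. Nuclei were from whole hearts of male NuTRAP/Cdh5-Cre mice on a C57BL/6 background, aged 8 to 12 weeks. GFP+ (endothelial) nuclei and GFP- (non-endothelial) nuclei were sorted by flow cytometry, with 2 libraries of each and 100 to 50000 nuclei per reaction. The authors called peaks from both libraries of a population together, so that there were 2 peak lists, 78912 peaks for GFP- nuclei and 65008 for GFP+ nuclei. Both populations carried the same reporter and the same Cre. In NuTRAP mice Cre switches on a GFP tag of the ribosomes. The promoter of Cdh5, the gene of VE-cadherin, drives Cre, so that GFP marks descent from endothelium and not a current state. The GFP- population is a mixture of cardiomyocytes, fibroblasts, mural cells, immune cells and others. Only nuclei with the DNA content of non-dividing diploid cells were sorted, which leaves out the polyploid nuclei of cardiomyocytes.

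VEGF-A is made by many tissue cells, cardiomyocytes among them, and rises when oxygen is low. Kdr (VEGFR2) is the main signalling receptor of blood vessel endothelium, Flt1 (VEGFR1) binds VEGF-A tightly but signals weakly and has a soluble form that acts as a decoy, and Flt4 (VEGFR3) binds VEGF-C and is known best from lymphatic vessels. VEGF-B and placental growth factor (Pgf) bind Flt1, and neuropilins hold VEGF or class 3 semaphorins beside a signalling receptor. Accessible DNA at a gene's start marks its promoter, and accessible DNA in introns and flanks often marks enhancers. The first intron of Kdr is known to hold an endothelial enhancer.

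The sequences that follow are of the largest first intron regions of the 3 kinase receptors and of the largest regions of 1 list at Kdr, Nrp1, Nrp2 and Pgf, to show the DNA behind the results. Each is the 200 bp around a peak summit, read from the plus strand of GRCm38, with the ETS words AGGAAG and CGGAAG on either strand in capitals. ETS factors, such as Erg, are transcription factors of endothelial genes. The first 5 windows are of receptor regions, and all but that of Flt4 were found only in the GFP+ list. The last 2 are of regions found only in the GFP- list.
Kdr, first intron, chr5:75974561-75974760: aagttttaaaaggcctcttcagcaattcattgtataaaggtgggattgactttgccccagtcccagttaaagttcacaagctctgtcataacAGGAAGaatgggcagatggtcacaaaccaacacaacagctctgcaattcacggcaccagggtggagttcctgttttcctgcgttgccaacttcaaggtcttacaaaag
Kdr, 35.6 kb upstream, chr5:76013950-76014149: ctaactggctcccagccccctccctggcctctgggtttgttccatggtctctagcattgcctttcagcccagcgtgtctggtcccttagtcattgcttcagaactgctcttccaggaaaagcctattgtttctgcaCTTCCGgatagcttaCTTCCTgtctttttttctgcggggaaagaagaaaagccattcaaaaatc
Flt1, first intron, chr5:147721532-147721731: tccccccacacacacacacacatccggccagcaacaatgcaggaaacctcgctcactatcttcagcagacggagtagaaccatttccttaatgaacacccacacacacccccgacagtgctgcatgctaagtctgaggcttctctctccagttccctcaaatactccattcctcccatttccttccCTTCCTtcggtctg
Flt4, first intron, chr11:49613380-49613579: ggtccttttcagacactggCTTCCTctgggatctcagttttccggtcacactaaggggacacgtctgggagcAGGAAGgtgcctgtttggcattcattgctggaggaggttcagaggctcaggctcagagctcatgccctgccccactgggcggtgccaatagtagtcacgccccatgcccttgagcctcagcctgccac
Nrp1, intron 6, chr8:128437564-128437763: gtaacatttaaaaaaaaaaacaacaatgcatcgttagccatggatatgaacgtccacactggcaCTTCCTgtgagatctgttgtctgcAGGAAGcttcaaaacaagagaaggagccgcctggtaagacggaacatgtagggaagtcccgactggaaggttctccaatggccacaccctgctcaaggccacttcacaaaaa
Nrp2, intron 7, chr1:62751632-62751831: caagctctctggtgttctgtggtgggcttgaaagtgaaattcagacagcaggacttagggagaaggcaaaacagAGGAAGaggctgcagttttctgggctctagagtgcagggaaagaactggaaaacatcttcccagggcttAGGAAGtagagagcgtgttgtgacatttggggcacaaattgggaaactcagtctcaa
Pgf, downstream of the gene, chr12:85158290-85158489: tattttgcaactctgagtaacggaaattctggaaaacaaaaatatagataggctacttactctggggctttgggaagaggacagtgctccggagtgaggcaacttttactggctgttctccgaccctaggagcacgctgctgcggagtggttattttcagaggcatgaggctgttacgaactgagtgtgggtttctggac

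The promoters of the receptors Kdr and Flt1 are shown because their peaks were larger in the GFP+ list. They are the 250 bases before the RefSeq start in GRCm38.p6, read along the gene on the minus strand, with the word GGGCGG of SP and KLF factors on either strand in capitals.
Kdr promoter, chr5:75978456-75978705: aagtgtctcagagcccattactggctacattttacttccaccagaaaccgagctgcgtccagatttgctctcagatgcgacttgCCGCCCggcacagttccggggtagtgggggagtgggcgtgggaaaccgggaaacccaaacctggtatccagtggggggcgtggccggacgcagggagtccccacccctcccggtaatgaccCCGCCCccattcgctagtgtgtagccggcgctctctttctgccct
Flt1 promoter, chr5:147726012-147726261: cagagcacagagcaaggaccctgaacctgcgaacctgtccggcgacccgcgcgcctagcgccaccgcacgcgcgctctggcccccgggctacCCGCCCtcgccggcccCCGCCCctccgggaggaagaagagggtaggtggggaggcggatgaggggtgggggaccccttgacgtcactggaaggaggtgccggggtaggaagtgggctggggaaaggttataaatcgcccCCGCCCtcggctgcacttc

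Each peak is described by its area, which the peak caller sums over the peak from the significance of its bases, and by its rank, a percentile of area among the peaks of the same list, from 0 for no peak to 100 for the largest. A peak was called when its area reached 200, so that no peak means a signal under that limit and not closed DNA. Peaks that overlapped by at least 1 bp were merged into 1 region, which was shared when both lists had a peak there and otherwise belonged to 1 list only. Of all regions, 53996 were shared, 23923 were found only in the GFP- list and 8730 only in the GFP+ list. The median difference in rank over all regions, GFP+ minus GFP-, was -3.90 points. Because there was 1 list per population, no value has a replicate check, no test was made, and intervals cover counting error only. In mixed nuclei, a smaller share of nuclei with an open site and a less open site in each nucleus cannot be told apart.

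The endothelial label was checked at the starts of marker genes. A start peak was one within 250 bp of an annotated transcript start, and 61.8% of protein-coding genes had one in the GFP- list and 59.8% in the GFP+ list. Of 8 endothelial genes, all had a start peak in the GFP+ list and 5 in the GFP- list. Of these, 7 ranked more than 20 points higher in the GFP+ list, as 1.94% of genes with a start peak did, among them Cdh5 with ranks of 18.0 (GFP-) and 85.3 (GFP+). Tek went the other way, from 81.1 to 54.1. Start peaks were in the GFP- list alone at 3 of 6 fibroblast and 3 of 6 pericyte and smooth muscle genes, while 5 of 6 cardiomyocyte genes had one in both lists. Of the lymphatic genes, Prox1 and Lyve1 had a start peak in both lists and Pdpn in the GFP- list alone. The starts of endothelial markers were thus higher in the GFP+ list together with those of Kdr, Flt1 and Flt4 described next, and their part in those values was not tested.

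All 9 VEGF genes had a start peak in both lists. Taking the highest peak over any start of a gene, none of the 9 had it in 1 list only. Of all genes with a start peak, 1.46% had it in the GFP+ list only and 4.71% in the GFP- list only. Of the 14 single start regions of the 9 genes, 2 were in the GFP+ list only and 2 in the GFP- list only. Receptors and ligands therefore had the same presence of start peaks by gene. The size of the peaks set apart Kdr, Flt1 and Flt4, and not the receptors as a group.

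The start peaks of the 3 receptor tyrosine kinases were larger in the GFP+ list. At Kdr (chr5:75932827-75978458, minus strand) the area was 1699.5 in the GFP- list and 3888 in the GFP+ list, with ranks of 74.3 and 90.0. At Flt1 (chr5:147561604-147726011, minus strand) the area went from 2336 to 5439 and the rank from 80.8 to 94.7. Flt4 (chr11:49609263-49652739, plus strand) had areas of 969 and 2539 and ranks of 58.8 and 83.3. The GFP+ areas were 2.29, 2.33 and 2.62 times the GFP- areas. Among 12802 protein-coding genes with a start peak in both lists, the median of this ratio was 0.863, and 0.961% of genes had a ratio above 2. In ranks by area, the start of Flt4 differed by more than 20 points and those of Kdr and Flt1 by 15.7 and 13.8, where 1.94% of genes with a start peak differed by over 20 in this direction and 7.33% in the other. Ranked by the −log10 p of the summit, all 3 differed by over 20 points, with 29.1 at Kdr, 25.5 at Flt1 and 33.8 at Flt4. The share of all genes that differed as much was counted for ranks by area only, so that these 3 values have no background.

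Part of the difference in area was in the length of the peaks. The Kdr peak was 1000 bp long in the GFP- list and 1925 bp in the GFP+ list, and its area per bp was 1.19 times as high in the GFP+ list. The Flt4 peak grew from 903 to 1667 bp, and its area per bp was 1.42 times as high. At Flt1 the lengths were close, 1821 and 2034 bp, and the area per bp was 2.08 times as high. Area per bp is a mean over the peak, and a longer peak takes in more of its low edges. At the summit, the −log10 p was 5.92 in the GFP- list and 9.12 in the GFP+ list at Kdr, 5.72 and 7.95 at Flt1, and 5.0 and 7.31 at Flt4. All 3 peaks were therefore both longer and higher at the summit in the GFP+ list.

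The co-receptors did not follow the kinases at their starts. Nrp1 (chr8:128358604-128503363, plus strand) had one of the largest start peaks of the genome in either list, with an area of 15815 in the GFP- list and 12540 in the GFP+ list and ranks of 99.8 and 99.7. Nrp2 (chr1:62703285-62818695, plus strand) had areas of 3751 and 3664 and ranks of 88.6 and 89.2. The rank by area of either promoter differed by less than 1 point between the populations. By the −log10 p of the summit, the rank differed by -0.87 points at Nrp1 and -3.16 points at Nrp2.

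The start peaks of the 4 ligands were smaller in the GFP+ list, as were most start peaks, since the GFP+ area was the larger at 12.8% of the 12802 genes with a peak in both lists. Vegfa (chr17:46016993-46032369, minus strand) had an area of 26529 in the GFP- list and 20471 in the GFP+ list, which were the 19th and the 31st largest peaks of their lists. Vegfb (chr19:6982473-6987651, minus strand) had areas of 4923 and 3995 with ranks of 92.5 and 90.5. Vegfc (chr8:54077606-54187096, plus strand) had areas of 4380 and 2875 with ranks of 91.0 and 85.3. For these 3 genes the ratios of GFP+ to GFP- area, 0.772, 0.812 and 0.656, lay under the median of all genes. By the −log10 p of the summit, their ranks differed by -3.82, -1.58 and -15.6 points.

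Pgf (chr12:85166635-85177790, minus strand) differed with the start chosen. Its highest start peak lay at an internal transcript start 6.8 kb into the gene, with areas of 3941 and 2257 and ranks of 89.4 and 81.2. The GFP+ list had 2 peaks in that region, of which the larger is given. By the −log10 p of the summit, the rank of the Pgf start was 1.01 points higher in the GFP+ list. At the start of the principal transcript the area was 1729 in the GFP- list and 339 in the GFP+ list, and the rank fell by 53.4 points, from 74.7 to 21.3. That GFP+ peak was 340 bp long where the GFP- peak was 1849 bp. Of all the starts examined at the 9 genes, this was the one with the widest gap between the populations among those with a peak in both lists.

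**Figure D1:**
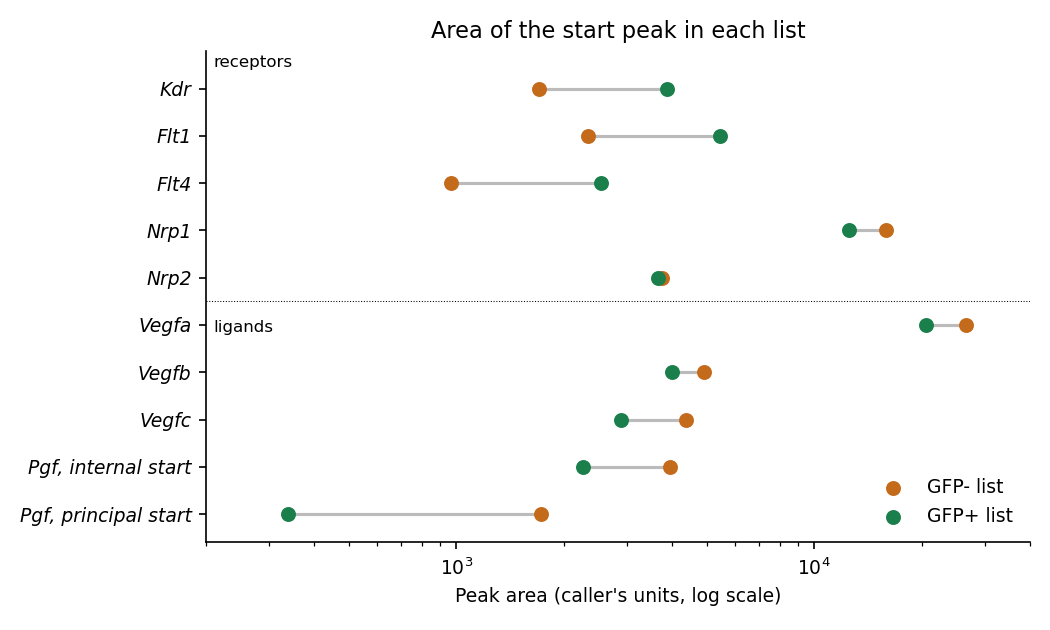
Area of the start peak of each gene, in the caller's units on a log axis, in the GFP- list (orange) and the GFP+ list (green), 1 value per list and gene, with the principal start of Pgf added. Green lies to the right for Kdr, Flt1 and Flt4, with 3888 against 1699.5 at Kdr, and to the left for every ligand.

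Per bp, the order of the start peaks in the GFP- list ran from Nrp1 (3.78 area units per bp) through Vegfa (3.06), Nrp2 (2.98), Vegfc (2.65), Pgf (2.47), Vegfb (2.22), Kdr (1.70) and Flt1 (1.28) to Flt4 (1.07). In the GFP+ list Flt1 rose to the fifth place with 2.67 area units per bp, while Kdr with 2.02 and Flt4 with 1.52 remained the lowest. The order changes without division by length. By area the GFP+ order was Vegfa (20471), Nrp1 (12540), Flt1 (5439), Vegfb (3995), Kdr (3888), Nrp2 (3664), Vegfc (2875), Flt4 (2539) and Pgf (2257). So the kinase receptors did not have the most accessible promoters of the family even in the endothelial list. With 1 list per population, no spread is known by which neighbours in either order could be told apart.

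By the distance between pairs of start ranks over the 2 lists, 16 of 13642 other genes lay within 5 rank points of Kdr, among them Tal1 at 1.70 and Gm20532 at 1.87 points. For Vegfa the nearest were Mnt, Zbtb7b and Ing1, and 2537 genes lay within 5 points, since the top ranks of both lists hold many shared start peaks.

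Over the whole loci, starts included, receptors and ligands differed in the lists that held their regions. Of the 89 receptor regions, 38 (42.7%, Wilson 95% interval 32.9 to 53.1) were found only in the GFP+ list and 9 (10.1%, 5.41 to 18.1) only in the GFP- list. Over all regions these shares were 10.1% and 27.6%. Of the 56 ligand regions, 6 (10.7%, 5.0 to 21.5) were found only in the GFP+ list and 13 (23.2%, 14.1 to 35.8) only in the GFP- list, close to the shares over all regions. The median difference in rank was 11.3 points over the receptor regions and -5.70 points over the ligand regions. Away from any protein-coding start, 37 of 83 receptor regions were in the GFP+ list only and 9 in the GFP- list only, and 3 and 11 of 35 ligand regions, beside 11.6% and 31.8% of all regions away from starts. The 2 sets were unlike in make-up. Of the receptor regions, 57 lay in gene bodies beyond the starts and 26 in flanks, and of the ligand regions 5 and 43. In gene bodies, 27 of 57 receptor and 2 of 5 ligand regions were in the GFP+ list only. In flanks these counts were 10 of 26 and 3 of 43. The ligand shares therefore describe mostly flanking DNA. Regions of 1 locus share a neighbourhood and are not independent.

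**Figure D2:**
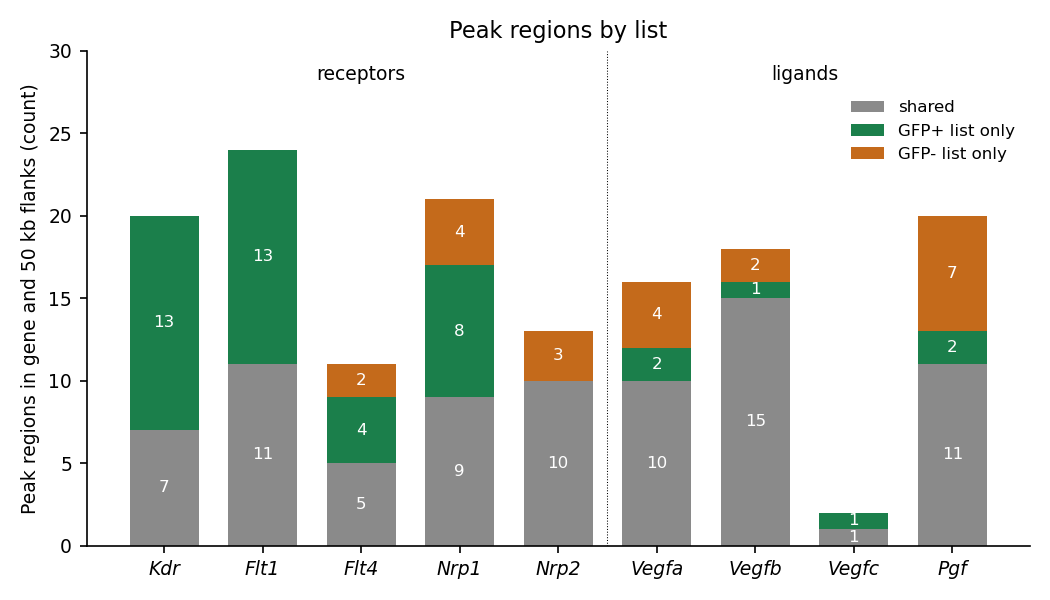
Number of peak regions inside each gene and within 50 kb of it, split into those with a peak in both lists (grey), in the GFP+ list only (green) and in the GFP- list only (orange). Green makes up 13 of 20 regions at Kdr and 13 of 24 at Flt1, and none of 13 at Nrp2.

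The regions of the GFP+ list only were spread unevenly over the 5 receptor genes. At Kdr, Flt1 and Flt4 together, 30 of 55 regions (54.5%, 41.5 to 67.0) were found only in the GFP+ list and 2 only in the GFP- list, with a median difference of 17.5 rank points. At Nrp1 and Nrp2 together the counts were 8 and 7 of 34 regions, with a median difference of -0.16 rank points, but all 8 were at Nrp1. The share of Nrp1, 38.1%, was close to the 36.4% of the kinase Flt4, and that of Nrp2 was 0. By a margin of over 20 rank points, 26 of the 55 kinase regions ranked higher in the GFP+ list and 1 ranked lower, beside 7.63% and 23.8% of all regions. Leaving out the regions over starts of any protein-coding gene, 29 of 51 kinase regions were in the GFP+ list only and 2 in the GFP- list only.

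**Figure D3:**
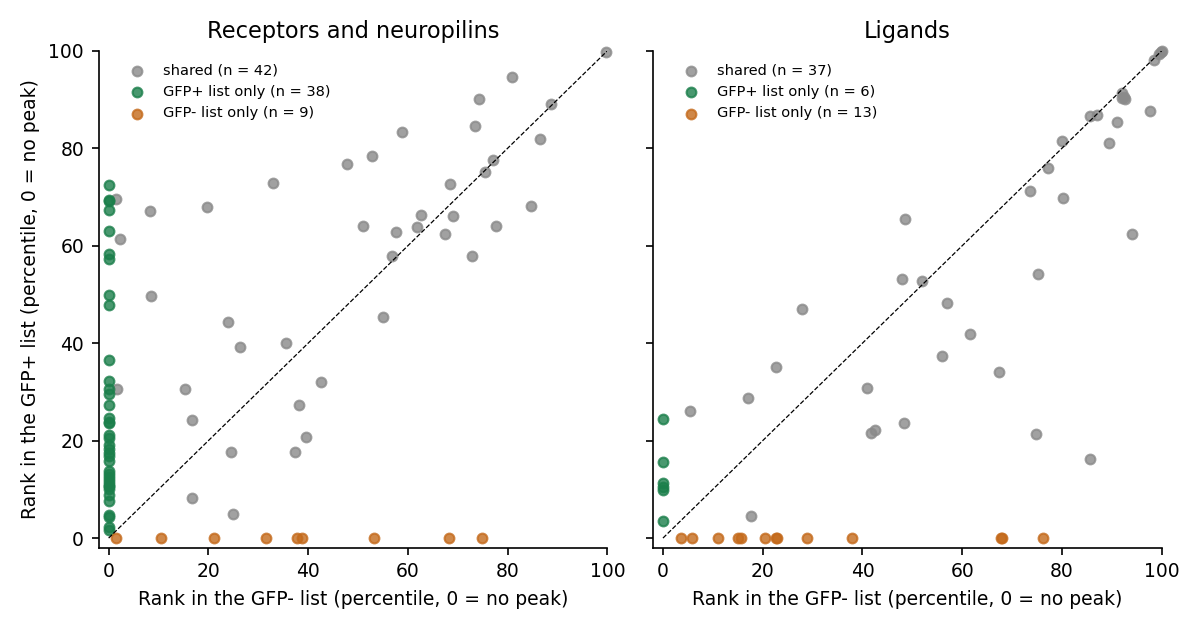
Percentile rank of each region in the GFP- list (x axis) and the GFP+ list (y axis), for receptors and neuropilins (left) and ligands (right), with 0 for no peak and the dashed line for equal ranks. The 38 receptor regions found only in the GFP+ list stand along the left edge up to rank 72.5, and most ligand points lie near or under the line.

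Of the 9 loci, Kdr had the highest share of regions in the GFP+ list only. Each of its 20 regions ranked higher in the GFP+ list, 13 of them had no GFP- peak, and none was found only in the GFP- list. The first intron, 3606 bp long, held 2 regions, both without a GFP- peak. The larger, 3.8 kb into the gene near the end of the intron, had an area of 694 and a rank of 49.9, and the other, at 2.1 kb, an area of 297 and a rank of 15.8. The larger region thus stood near the middle of the GFP+ list. The region 3.8 kb in carries 1 ETS word in the window printed above.

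The largest Kdr regions with no GFP- peak lay outside the gene. The region 35.6 kb upstream had a GFP+ area of 1482, a rank of 72.5 and a length of 1047 bp, and its window carries 2 ETS words. The region at 55.6 kb, beyond the end of the gene, had an area of 1029 and a rank of 63.0. Inside the gene, the region in intron 10, at 16.1 kb, had an area of 209 in the GFP- list, barely over the caller's limit, and 1317 in the GFP+ list, with ranks of 1.55 and 69.6. The region over the last exon, exon 30 at 44.7 kb, was large in both lists, with areas of 1644 and 2758. In all, 11 Kdr regions ranked more than 20 points higher in the GFP+ list.

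Flt1 was similar to Kdr, with 13 of 24 regions found only in the GFP+ list and none only in the GFP- list. Its first intron, 25253 bp long, held 3 regions. That at 4.4 kb was found only in the GFP+ list, with an area of 851 and a rank of 57.2, as was a small one at 18.4 kb, with an area of 223 and a rank of 4.30. The third, at 9.5 kb, was shared and ranked lower in the GFP+ list, 24.5 against 17.6. So the first intron of Flt1 held both kinds of region.

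Large GFP+ regions also stood at the far end of the Flt1 gene. In intron 25, at 151.3 kb, a region found only in the GFP+ list had an area of 1200 and a rank of 67.2. In intron 23, at 146.2 kb, the rank went from 2.21 in the GFP- list to 61.4 in the GFP+ list. Of the upstream regions, the one at 32.3 kb went from rank 19.8 to 68.0 and the one at 25.9 kb from 52.8 to 78.5, while a region 7.1 kb upstream, with an area of 416 and a rank of 29.6, was found only in the GFP+ list. An internal transcript start of Flt1, 79.3 kb into the gene, had a GFP+ peak only, of rank 13.7. The exception in size was the region in intron 15, at 119.0 kb, which had an area of 2890 and a rank of 84.7 in the GFP- list against 1249 and 68.2 in the GFP+ list. The GFP+ list had 2 peaks in this region, of which the larger is given. The region was 1 of 3 at Flt1 that ranked lower in the GFP+ list.

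**Figure D4:**
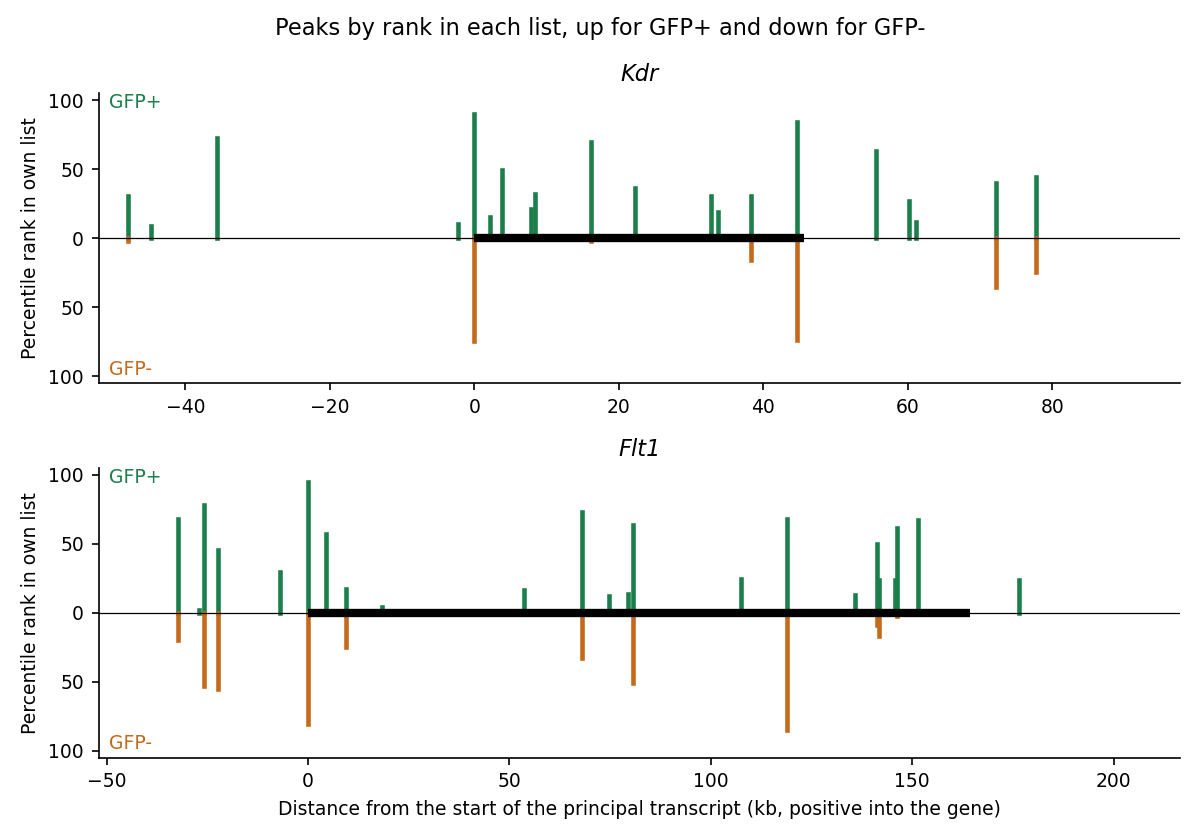
Percentile rank of each region at Kdr (top) and Flt1 (bottom), upward for the GFP+ list and downward for the GFP- list, against the distance from the start of the principal transcript in kb. The black bar is the gene. Many GFP+ bars have no GFP- bar under them, such as that 35.6 kb upstream of Kdr with rank 72.5.

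Flt4 had 11 regions, of which 4 were found only in the GFP+ list and 2 only in the GFP- list. Its first intron, 14817 bp long, held 3 regions, each ranked higher in the GFP+ list. The largest, at 4.2 kb, was shared, with an area of 704 in the GFP- list and 1787 in the GFP+ list and ranks of 47.9 and 76.7. The others, at 3.0 and 12.9 kb, had GFP+ areas of 333 and 261 and no GFP- peak. The largest Flt4 region without a GFP- peak was in intron 17, at 26.7 kb, with an area of 658 and a rank of 47.9. Both regions without a GFP+ peak were near or beyond the end of the gene, the larger at 49.0 kb with an area of 459 and a rank of 31.6. The GFP+ excess of Flt4 was therefore at its start and within its introns.

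The neuropilins differed from each other. At Nrp1, 8 of 21 regions were found only in the GFP+ list and 4 only in the GFP- list. The large GFP+ regions were in introns 6 and 2, with areas of 1302 at 78.4 kb, 1291 at 91.3 kb and 882 at 14.3 kb and ranks of 69.3, 69.1 and 58.4. A further region in intron 2, at 28.1 kb, went from rank 8.27 to 67.2. The first intron of Nrp1 held 1 region, at 2.2 kb, which was found only in the GFP- list with an area of 349 and a rank of 21.1. Of the other regions without a GFP+ peak, the larger were at 106.3 and 126.9 kb, with areas of 538 and 552. Regions of either list alone thus lay side by side in the introns of Nrp1, below a promoter with a peak in both.

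At Nrp2, none of 13 regions was found only in the GFP+ list and 3 were found only in the GFP- list. These were in introns 7, 12 and 3, with areas of 1746 at 48.0 kb, 1332 at 70.7 kb and 820 at 38.5 kb and ranks of 74.9, 68.1 and 53.2. The first intron held 1 region, at 3.5 kb, shared, with ranks of 86.6 and 81.9. Nrp2 was the 1 receptor gene without a region of the GFP+ list alone. Its share of regions in the GFP- list only, 23.1%, was under the 27.6% of all regions, and 9 of its 13 regions ranked lower in the GFP+ list, as did 58793 of all 86649.

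**Figure D5:**
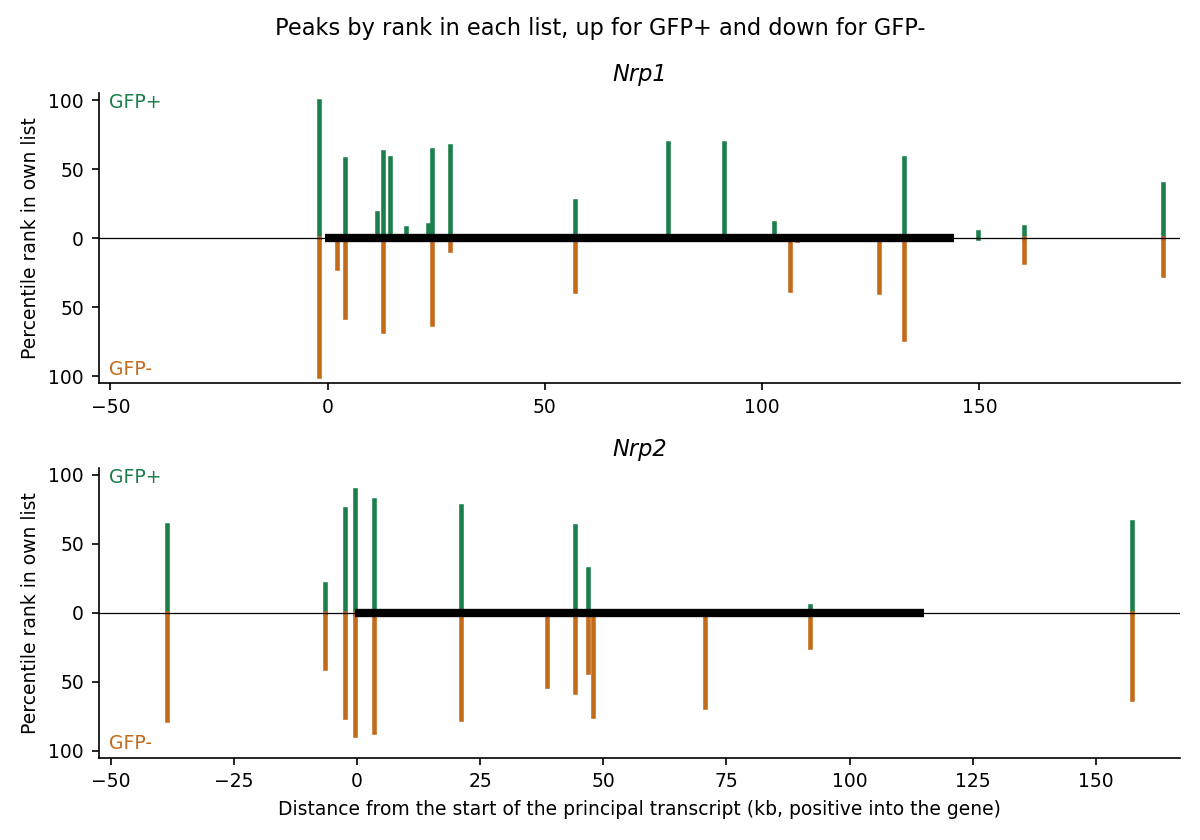
Percentile rank of each region at Nrp1 (top) and Nrp2 (bottom), upward for the GFP+ list and downward for the GFP- list, against the distance from the start of the principal transcript in kb. The black bar is the gene. At Nrp1 bars of 1 list alone point both ways, and at Nrp2 those at 38.5, 48.0 and 70.7 kb point down only.

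The first introns of the 5 receptor genes together held 10 regions, of which 6 were found only in the GFP+ list, 3 were shared and 1 was found only in the GFP- list. All 6 belonged to Kdr, Flt1 and Flt4, 2 at each gene. Later introns held 43 regions, with 19 in the GFP+ list only and 7 in the GFP- list only. The 26 regions of the receptor flanks held 10 and 1. Of all regions away from protein-coding starts, 11.6% were in the GFP+ list only and 31.8% in the GFP- list only. The GFP+ regions were therefore not a matter of the first introns alone.

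Among the ligands, Vegfa had 16 regions, of which 10 were shared, 4 were found only in the GFP- list and 2 only in the GFP+ list. Its start region spanned much of the gene, with peak lengths of 8677 bp in the GFP- list and 6830 bp in the GFP+ list. The GFP+ list had 2 peaks in this region, of which the larger is given. The region took in the first intron, so that no separate first intron region was listed. The largest region of 1 list was 50.5 kb upstream, with a GFP- area of 1851 and a rank of 76.2, followed by that 32.2 kb upstream, with 539 and 37.8. The next in size was at an internal start 9.3 kb into the gene, in the GFP+ list only, with an area of 256 and a rank of 9.80. Of the 16 Vegfa regions, 12 ranked lower in the GFP+ list, near the share of all regions, 58793 of 86649.

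Vegfb lies in a gene-dense stretch, and 15 of its 18 regions were shared. Those 15 included regions over starts of its neighbours Bad, Plcb3 and Fkbp2, so that they describe those promoters as much as Vegfb. The regions of 1 list were small, with ranks of 15.7 at 33.5 kb and 11.1 at 29.9 kb upstream in the GFP- list and 11.2 at 39.2 kb in the GFP+ list. Vegfc stood in a gene of 109491 bp with just 2 regions, its start and a peak in the first intron at 75.8 kb, found only in the GFP+ list with an area of 295 and a rank of 15.6. Neither ligand locus thus had a large region of 1 population.

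Pgf was the ligand with the most regions lower in endothelial nuclei. Of its 20 regions, 7 (35.0%, 18.1 to 56.7) were found only in the GFP- list and 2 only in the GFP+ list. Over all regions these shares were 27.6% and 10.1%, so that the interval took in the GFP- share of all regions. At Pgf 11 regions ranked more than 20 points lower in the GFP+ list, beside 23.8% of all regions. The largest without a GFP+ peak lay at 18.9 and 12.1 kb, downstream of the gene, with areas of 1326 and 1313 and ranks of 68.0 and 67.8, and in intron 2, at 2.0 kb, with an area of 427 and a rank of 28.8. The first intron, 1102 bp long, lay within the region of the principal start. Among shared regions, that at 31.4 kb had an area of 3072 in the GFP- list and 300 in the GFP+ list, and that 17.7 kb upstream had areas of 5658 and 1003. The marker genes of fibroblasts and of pericytes and smooth muscle were likewise lower at their starts in the GFP+ list, by a median of 51.5 rank points over the 5 fibroblast genes with a start peak and 21.9 over the 6 of pericytes and smooth muscle, and their part in the Pgf values was not tested.

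As background for single loci, 8070 protein-coding loci had at least 10 regions, with a median of 7.69% of regions in the GFP+ list only and 20% in the GFP- list only. A share of GFP+ only regions at least as high as that of Kdr (65%) was seen at 5 of these loci, as high as that of Flt1 (54.2%) at 11, as high as that of Nrp1 (38.1%) at 101 and as high as that of Flt4 (36.4%) at 148. For Pgf, 1565 loci had at least its share of GFP- only regions. The genes were chosen with earlier results in view, so that these places are a description.

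Sequence was not used to choose the regions. An ETS word, AGGAAG or CGGAAG on either strand, was in the 200 bp window of 25 of the 38 receptor regions found only in the GFP+ list (65.8%, 49.9 to 78.8), and in 22 of the 30 of Kdr, Flt1 and Flt4 (73.3%, 55.6 to 85.8). Over all windows, the share was 34.1% of 86602, and over those of the GFP+ list only, 46.1% of 8720. Of the 56 ligand windows, 18 held one (32.1%, 21.4 to 45.2). The windows printed above for Kdr, Flt1, Flt4 and Nrp1 each hold 1 or 2 ETS words, but so does that of Nrp2 from the GFP- list, with 2. A word match is a description of letters and not a bound site.

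The other words searched, each on both strands, were AGATAA for the GATA family, CCATTGT for the SOX family and GTAAACA for forkhead factors. Further words were TGANTCA for the AP-1 family, GGAATG for the TEAD family, ACGTG for hypoxia-inducible factors and GGGCGG for the SP and KLF families. In this order, the 7 words were found in 3, 1, 2, 7, 9, 6 and 2 of the 38 receptor windows of the GFP+ list only. The shares over the 8720 windows of the same class were 10.7%, 5.86%, 3.77%, 8.68%, 13.1%, 11.8% and 7.37%. The intervals of the receptor shares took in these values for 6 of the 7 words. For AP-1 the receptor share was 18.4% with an interval of 9.22 to 33.4.

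In the 250 bases before the RefSeq starts, ETS words were at Flt1, with 2, and at Nrp1, with 1, and there was none at the other 7 genes, while 39.2% of 32817 promoters held one. The word GGGCGG, in 32.7% of all promoters, occurred 2 times at Kdr and 3 times at Flt1, in the promoters printed above. It occurred 3 times at Flt4, 5 times at Nrp2 and 4 times at Vegfb.

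The rest of the pathway was read from 40 further genes, chosen as ligands, partner receptors, adaptors, kinases, oxygen sensors and targets. Of these, 35 had a start peak in both lists, 0 in the GFP+ list only, 2 in the GFP- list only and 3 in neither. The median difference in start rank was -0.56 points, beside -0.81 for all genes with a start peak. The 4 that ranked more than 20 points higher in the GFP+ list were Ptprb (34.2 to 75.8), a phosphatase that acts on Tie2 and VE-cadherin, Nos3 (39.4 to 85.5), the endothelial nitric oxide synthase, Dll4 (66.1 to 95.6), the Notch ligand of tip cells, and Sema3a (4.70 to 25.5), a ligand of Nrp1. Lower by as much were Vegfd (49.3 to no peak), a ligand of Flt4, and Angpt2 (44.0 to 14.4), a ligand of Tie2. Prkcb, a protein kinase C, had a small peak in the GFP- list only, of rank 7.79. Sh2d2a, Map2k1 and Esm1 had no start peak in either list.

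The general kinases and the oxygen pathway upstream of Vegfa had large start peaks in both lists. All 7 genes of the oxygen pathway, among them Hif1a (97.8 and 97.3) and Egln1 (96.7 and 96.5), a sensor of oxygen, had a start peak in both lists and none differed by more than 20 rank points. The same held for the 3 plexins, partner receptors of the neuropilins, such as Plxnd1 (99.4 and 99.2). Of 13 kinases and lipases, 11 had a start peak in both lists. Over the 37 pathway genes with a start peak, 4 ranked higher and 2 lower by over 20 points in the GFP+ list, beside 1.94% and 7.33% of all genes with a start peak.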

How the data were processed

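The data were ATAC-Seq peak lists of sorted GFP- and GFP+ heart nuclei, 2 libraries of each. Per the methods of the study and the submitters' processing notes, reads were trimmed with fastp, mapped to mm10 with Bowtie2 (version 2.3.5.1 in the notes), filtered for quality with SAMtools, freed of duplicates with Picard and downsampled to a common number, and Genrich called peaks in its ATAC-Seq mode. How far reads gather in peaks still sets how long a list is, whatever the depth. The deposited signal column is the area of a peak, the deposited −log10 p-value belongs to the summit, and the deposited score, capped at 1000, was not used. Read counts and separate replicates were not analysed here, so the depth of each library was not checked and the spread between libraries is unknown. Wilson 95% intervals cover counting error only.

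Genes, transcript starts, exons and introns came from GENCODE M21 and sequences from GRCm38.p6 and RefSeq, where all 9 genes had a promoter. A region took the highest ranked peak of each list, and its place is that of its summit. A start peak overlaps 250 bp to either side of any transcript start, and distances run from the start of the principal transcript. The genes and lists were chosen with earlier results of these data known. Named were all 9 genes, their start and first intron regions, the 3 largest regions of 1 list at each, and pathway genes differing by more than 20 rank points or with a start peak in 1 list; other regions were named after their values were seen. The 3 genes with start ranks nearest to those of Kdr and of Vegfa were also to be named, and 1 of those of Kdr is not reported here. The alternatives changed the start, the start window, the overlap, the least area, the flanks, the ranking and the regions over other genes' starts. Leaving out single genes and using principal starts were added after the data were seen. Merging was tested on simulated data. Python 3.11.15 was used, with pandas 2.3.3, numpy 2.4.6, scipy 1.17.1, pysam 0.24.0 and matplotlib 3.10.9.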

Additional observations from a re-analysis of the deposited data

How the results depend on the processing

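No paired analysis was possible because each list was called from both replicates together, and for the same reason no replicate could be left out. Of 47 alternative counts, shares and medians, 42 stayed within the main value's interval or 1.5 times the main count, and 5 moved. Only a median could be labelled as reversed, since a count or share has no direction, and 0 were. With an overlap of 50% of both peaks required for sharing, the ligand share in the GFP+ list only was 28.8% and the receptor share in the GFP- list only was 18.2%. With peaks of area 400 or more, the ligand share in the GFP+ list only was 5% and the receptor median was 4.07 rank points. Within the gene records alone, the ligand share in the GFP+ list only was 23.1%, which is 3 of 13 regions. In these 5 cases the cause was not tested beyond the numbers of regions left. With single genes left out, the receptor share in the GFP+ list only lay between 36.2% (without Kdr) and 50% (without Nrp2). The ligand share in the GFP- list only then lay between 16.7% (without Pgf) and 28.9% (without Vegfb). That ligand share was 30.2% of 43 without regions over starts of other genes. With an overlap of 50% of both peaks required, it was 34.2% of 73. Counting only the first base of the gene record as the start, Pgf had a GFP+ peak of rank 21.3 and no GFP- peak. So 8 of 9 genes then had a GFP- start peak. The GFP- peak of area 1729 at the principal start of Pgf ended just short of that start window. At this principal start the rank difference was -53.4 points. Ranked by summit significance, the Kdr start differed by 29.1 points and the receptor median was 7.98. Small regions near the area limit of 200 can fall in or out of a list.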

Other observations

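Peaks covered the gene bodies unevenly. Beyond the first 1000 bp, GFP+ peaks covered 11.7% of the body of Kdr and GFP- peaks 3.83%, and at Flt1 the shares were 5.16% and 1.77%. Flt4 had 5.56% and 3.18%, and Nrp1 5.57% and 4.11%. Nrp2 had the reverse, 3.42% in the GFP+ list and 5.72% in the GFP- list, as had Pgf with 15.0% and 34.7% and Vegfb with 0% and 9.14%. Start peaks that reach past the first 1000 bp, and peaks at internal starts, count in these shares. At Vegfb no region but the start region lay inside the gene, so that its 9.14% is the edge of the GFP- start peak. At Pgf the regions of both starts count in part or whole. Vegfc had 0.204% in the GFP+ list and 0% in the GFP- list. Vegfa, a short gene under a broad start peak, had 50.2% and 51.8%. The median of 19449 protein-coding genes was 0.173% in the GFP+ list and 0.472% in the GFP- list.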
